A study of Homo sapiens with 49 samples.

Results

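Melanophilin (MLPH), the RAB27 GTPases, the other RAB27 effectors and the MYO5 motors were examined in Ishikawa cells, a human line derived from a uterine epithelial adenocarcinoma. The 10 genes were taken by name: MLPH, RAB27A, RAB27B, MYRIP, SYTL1, SYTL2, SYTL4, MYO5A, MYO5B and MYO5C. They had 25 of the 54715 probe sets on the arrays. A log2 level above 4, called the floor here, on at least 6 arrays was required for testing. Each gene was represented by its brightest passing probe set. MLPH, RAB27A, RAB27B, SYTL1, SYTL4, MYO5A, MYO5B and MYO5C, with 13 probe sets, passed among 11075 genes with 19802 probe sets. MYRIP and SYTL2 did not.

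All cells were kept in phenol red-free medium with CSS-supplemented (the labels' abbreviation) rather than whole serum and were exposed for 72 h to ethinyl estradiol (EE), a synthetic estrogen, or to its ethanol vehicle at 0.1% v/v. There were 6 arrays each for vehicle and for EE at 0.1, 1, 3, 10, 100 and 1000 pM, and 7 for 0.3 pM, 49 in all. The labels do not say whether arrays of a group came from separate cultures, so the p-values measure the spread between arrays, which may be technical. The number of arrays limits the precision.

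RAB27 proteins are small GTPases that, when loaded with GTP, sit on secretory and lysosome-related vesicles and recruit effector proteins. Melanophilin is the effector that joins RAB27A on a melanosome to the actin motor myosin Va, and MYRIP is a related linker to class V and class VII myosins. The synaptotagmin-like proteins (SYTL) dock RAB27-bearing vesicles at the plasma membrane in glands and secretory epithelia, where MYO5B and MYO5C move recycling endosomes and secretory granules.

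RefSeq (GRCh38.p14) gives 2 starts for MLPH, 841 bases apart on the plus strand of chromosome 2. The 250 bases before each are shown because MLPH had the large concentration-dependent change described below, and this is the DNA just upstream of its transcript starts. Capitals mark motif matches on either strand: the E-box CACGTG, and the GC box GGGCGG or its reverse complement.
MLPH upstream start, chr2:237486160-237486409: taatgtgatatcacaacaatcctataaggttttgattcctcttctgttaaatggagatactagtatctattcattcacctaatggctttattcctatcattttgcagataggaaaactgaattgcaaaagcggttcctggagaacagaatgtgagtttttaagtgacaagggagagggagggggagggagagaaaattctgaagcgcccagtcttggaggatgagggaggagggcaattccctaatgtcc
MLPH downstream start, chr2:237487001-237487250: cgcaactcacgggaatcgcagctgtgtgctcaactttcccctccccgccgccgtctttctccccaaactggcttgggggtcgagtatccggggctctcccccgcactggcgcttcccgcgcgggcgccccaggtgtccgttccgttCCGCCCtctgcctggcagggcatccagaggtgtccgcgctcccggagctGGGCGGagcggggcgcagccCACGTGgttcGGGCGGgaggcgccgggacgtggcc
The window of the upstream start had a GC content of 41.6% and none of the 5 motifs searched. That of the downstream start had a GC content of 72.4%, 1 E-box beginning 35 bases before the start, and 3 GC boxes beginning 104, 55 and 25 bases before it. Neither window held the estrogen response element half-site GGTCA, the full element, searched as GGTCA followed after any 3 bases by its reverse complement, or the AP-1 motif TGANTCA. All motifs were searched on both strands. Any full element overlaps its own half-sites. Over 35116 RefSeq windows of this length, the full element was found in 0.0399%, the half-site in 32.6%, the E-box in 6.34%, the GC box in 42.6% and the AP-1 motif in 6.57%. Among the windows of the other members, the half-site was found in 1 window of RAB27A and in both of SYTL4, and none held the full element or the E-box. The GC box was found in windows of MYO5A, MYO5B, MYO5C, MYRIP, RAB27A, RAB27B and SYTL4. The AP-1 motif was found in a window of RAB27A and in a window of RAB27B. SYTL2 had no window. A match describes letters, not binding, and elements farther away were not searched.

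The cells had the marker levels of an epithelial line. All 8 epithelial markers (EPCAM, CDH1, KRT7, KRT8, KRT18, KRT19, PAX8 and SOX17) were above the floor on all 49 arrays, with a mean level of 9.57 to 9.72 on the vehicle arrays and 9.56 to 9.65 on the 1000 pM arrays. That mean covers changes both ways: at 1000 pM KRT7 fell by 0.60 (limma, adjusted p = 2.61e-07), SOX17 rose by 0.72 (adjusted p = 2.31e-11), and the other 6 did not pass. The pigment cell is the cell type in which MLPH is best known, and TYR, PMEL, MLANA and SOX10 were under the floor on every array. TYRP1 exceeded the floor on 22 arrays, reaching 4.44, and MITF on all (6.44 to 7.09). The mean level of the 6 pigment-cell markers was 3.45 to 3.63 on vehicle arrays and 3.34 to 3.66 at 1000 pM. Of 7 immune markers KIT alone was above the floor. Among the stromal markers COL1A1 and COL1A2 were above it on all arrays, COL3A1 on 48, and PDGFRB and DCN on none. At 1000 pM COL1A2 rose by 1.07 (limma, adjusted p = 1.12e-07), while COL1A1 fell by 0.66 (adjusted p = 0.00226) and COL3A1 by 0.60 (adjusted p = 0.0414). These 3 collagens changed with the same concentration as the members, and their part in the results was not tested. The estrogen response was present at 1000 pM: the progesterone receptor gene PGR was 35.1-fold and GREB1, a classical estrogen receptor target, 6.21-fold above vehicle. The PGR vehicle mean, 4.02, was at the floor, so that fold is uncertain.

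A set of 4 arrays stood apart by their control probes: the sixth replicates at 1000 and 3 pM, the second at 0.3 pM and the fifth vehicle array. Their beta-actin signal near the 3′ end exceeded that near the 5′ end by 2.67 to 4.62 log2 units, against 0.80 to 2.06 on the other 45, and their GAPDH difference was 0.40 to 1.79 against −0.21 to 0.19. On all 4 of these arrays the brightest RAB27A probe set was the lowest of its group, 0.33 to 1.02 log2 units from the mean of the others, and so was MYO5C, by 0.15 to 0.98. The other 3 RAB27A probe sets differed there by −0.28 to 0.38, in both directions. SYTL1 was higher there by 0.37 to 0.86 and MLPH by 0.16 to 0.52. Each tested member's value at 1000 pM without these arrays is given with its result.

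MLPH rose with the EE concentration from a level near the floor set for testing. At 1000 pM it was 6.39-fold above vehicle (log2 change 2.68 ± 0.11 SE, 95% interval 2.46 to 2.89), and 6 of 6 arrays lay above every vehicle array. It rose at 3, 10, 100 and 1000 pM and did not pass at 0.1, 0.3 or 1 pM. The midpoint of its curve lay at 10.7 pM. MLPH had no further probe set on the arrays, so these values could not be compared with those of another. In bulk RNA, more cells making a transcript and more transcript per cell cannot be told apart.

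The vehicle arrays held MLPH at log2 levels of 3.95 to 4.89 with a median of 4.47. At 0.1 pM its levels were 4.03 to 4.45 (median 4.25), and at 0.3 pM 4.21 to 4.79 (median 4.57). At 1 pM they were 4.50 to 4.77 (median 4.64). These 4 groups overlapped, and the 0.1 pM group had the lowest mean. At 3 pM the levels were 4.81 to 5.24 (median 4.94), overlapping the vehicle arrays but not those at 1 pM. At 10 pM they were 5.47 to 5.90 (median 5.70), and at 100 pM 6.57 to 7.15 (median 6.81). At 1000 pM they were 6.95 to 7.27 (median 7.17), overlapping those at 100 pM. The groups from 3 to 100 pM each lay wholly above the next lower one. The vehicle level is so close to the floor of 4 that the fold changes are uncertain, since low signals are compressed.

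**Figure D1:**
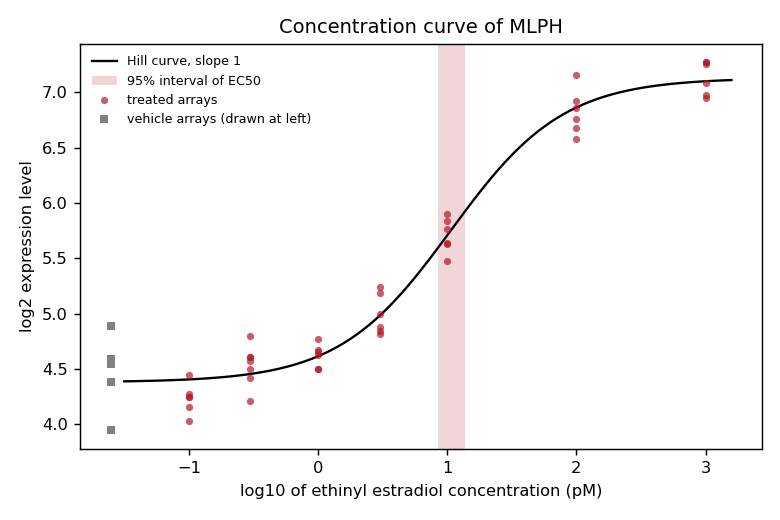
MLPH log2 level on each treated array (red points) against the log10 EE concentration in pM, with the vehicle arrays drawn at the left (grey squares), the fitted slope 1 curve and the 95% interval of its EC50 (band). Group means are 4.46 for vehicle and 4.62 at 1 pM, and go from 4.99 at 3 pM to 7.13 at 1000 pM.

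Against vehicle, the limma fit over 11075 genes gave MLPH changes of −0.22 at 0.1 pM (adjusted p = 0.686), 0.07 at 0.3 pM (adjusted p = 0.952) and 0.16 at 1 pM (adjusted p = 0.534). It called 0 genes at each of these concentrations, or 0% of those tested. At an unadjusted p under 0.05 it gave 467 (4.22%), 288 (2.6%) and 884 genes (7.98%). MLPH was among the first and SYTL4 among the last as the only members, and both were lower than vehicle there. At 3 pM MLPH was 1.45-fold higher (0.54 ± 0.11, adjusted p = 0.00844), 1 of 17 genes called, or 0.153%. That call was lost without vehicle replicate 4 (change 0.43, adjusted p = 0.0873), 3 pM replicate 4 (0.50, adjusted p = 0.0513) or 3 pM replicate 6 (0.49, adjusted p = 0.0546). It was also lost when vehicle and 3 pM arrays were fitted alone (limma, adjusted p = 0.998). Leaving out all arrays numbered 2 (limma, adjusted p = 0.103), 4 (adjusted p = 0.595) or 6 (adjusted p = 0.105) lost it too. The call was kept without the 4 arrays that stood apart (0.57, limma, adjusted p = 0.00172, 0.172% of genes called). It was also kept with the arrays at 0.1 and 0.3 pM as reference, a later choice (0.60, adjusted p = 7.67e-05, 0.163% called).

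At 10 pM MLPH was 2.38-fold higher (1.25, adjusted p = 5.88e-12), where 95 genes (0.858%) were called. At 100 pM it was 5.15-fold higher (2.36, adjusted p = 8.13e-23), where 1120 genes (10.1%) were called. At 1000 pM its adjusted p was 5.57e-25, and 799 genes (7.21%) were called, 2.88% higher and 4.33% lower. Arrays lying wholly above the vehicle arrays were seen for 0.497% of genes at 10 pM, 1.99% at 100 pM and 1.56% at 1000 pM. Without the 4 arrays the change at 1000 pM was 2.73 ± 0.11 (limma, adjusted p = 1.01e-25).

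Between neighbouring concentrations MLPH passed at 2 steps. From 3 to 10 pM it rose by 0.71 (limma, adjusted p = 9.27e-05, 0.153% of genes called), and from 10 to 100 pM by 1.12 (adjusted p = 2.24e-10, 0.984% called). With the replicate number as a block within that last step, 914 genes (8.25%) were called in place of 109, MLPH was 1.12 ± 0.07 higher (adjusted p = 1.19e-12), and MYO5C passed as well (−0.12 ± 0.03, adjusted p = 0.0299). Within the step from 3 to 10 pM the block called 0.163% of genes. MLPH was 0.71 ± 0.11 higher there, with a weaker result than without the block (limma, adjusted p = 0.0273). The step from 1 to 3 pM was 0.37 and did not pass (adjusted p = 0.999736, 0.00903% called), although the arrays did not overlap. The 3 steps from 0.1 to 0.3 pM (0.30), from 0.3 to 1 pM (0.09) and from 100 to 1000 pM (0.31) did not pass, with 0% of genes called by limma. At these 3 steps 209 (1.89%), 452 (4.08%) and 305 genes (2.75%) had an unadjusted p under 0.05. MLPH was the only member at the first and the last. Arrays lying wholly above those of the next lower concentration were seen for 0.135% of genes at 3 pM, 0.153% at 10 pM and 1.03% at 100 pM.

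A Hill curve of slope 1 placed the MLPH EC50, where the log2 change was midway between its plateaus, at 10.7 pM (95% interval 8.51 to 13.8), with a lower plateau of 4.38 and a span of 2.75 log2 units. A free slope came to 0.95 with an EC50 of 11.0 pM. The same curve was fitted to the 116 genes that were called and at least 1.5-fold higher at 1000 pM. Their median EC50 was 15.5 pM (quartiles 10.3 and 25.9), with 30 below MLPH and 82 above. By size of change MLPH was number 9 among them. MLPH took part in choosing these genes, so the order is a description.

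The RAB27 GTPases did not pass at 1000 pM. RAB27A, which marks melanosomes and lytic granules and is used in many secretory cells, had levels of 6.83 to 7.95 (median 7.84) in vehicle and 7.50 to 7.87 (median 7.84) at 1000 pM. The groups overlapped and the medians were equal to 2 decimals. The difference was 0.09 ± 0.11 (95% interval −0.13 to 0.32; limma, adjusted p = 0.692), and −0.02 without the 4 arrays (adjusted p = 0.889). Its other 3 entering probe sets gave −0.06, −0.03 and −0.04.

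RAB27B, the close relative used in exocrine and other secretory cells, had levels of 7.53 to 7.89 (median 7.70) in vehicle. They were 7.32 to 7.64 (median 7.53) at 100 pM and 7.15 to 7.58 (median 7.55) at 1000 pM. All 6 arrays at 1000 pM were under the vehicle mean, yet the groups overlapped. The difference at 1000 pM was −0.23 ± 0.08 (95% interval −0.40 to −0.07) and did not pass (limma, adjusted p = 0.0691); at 100 pM it was −0.20 (adjusted p = 0.0886). The F test over the 7 contrasts with vehicle, which called 6.99% of genes, did pass (adjusted p = 0.0128).

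Group means of RAB27B were 7.75 at 0.1 pM, 7.80 at 0.3 pM, 7.70 at 1 pM, 7.68 at 3 pM, 7.58 at 10 pM, 7.50 at 100 pM and 7.47 at 1000 pM. No step between neighbouring concentrations passed. The 13 arrays at 0.1 and 0.3 pM were also used as reference in place of vehicle, a choice made after the vehicle arrays were seen to spread more. With them RAB27B fell by 0.31 ± 0.07 at 1000 pM (limma, adjusted p = 0.00128). It fell by 0.28 at 100 pM (adjusted p = 0.00466). The RAB27B SD was 0.118 in vehicle, 0.115 at 0.1 pM and 0.175 at 0.3 pM, so this reason did not apply to it. Its mean was 7.78 in the reference and 7.70 in vehicle. That reference called 8.43% of genes at 1000 pM and 9.45% at 100 pM. Without the 4 arrays the difference from vehicle at 1000 pM was −0.17 ± 0.08 (adjusted p = 0.223).

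Neither of the tested RAB27 effectors of the synaptotagmin-like family passed at 1000 pM. SYTL1 (JFC1), a tandem C2-domain effector of exocytosis, had means of 6.17 ± 0.39 (SD, n = 6) in vehicle and 6.06 ± 0.21 at 1000 pM. The difference was −0.11 ± 0.13 (95% interval −0.38 to 0.16; limma, adjusted p = 0.69), and −0.031 without the 4 arrays (adjusted p = 0.922). SYTL4 (granuphilin), known for docking insulin granules, had 5.14 ± 0.27 in vehicle and 5.04 ± 0.14 at 1000 pM. The difference was −0.10 ± 0.12 (95% interval −0.33 to 0.14; adjusted p = 0.70), and 0.039 without the 4 arrays (adjusted p = 0.904). For both, the vehicle and 1000 pM arrays overlapped.

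SYTL2 and MYRIP did not rise above the floor on enough arrays to be tested. SYTL2 (exophilin-4), a plasma membrane docking effector, had 3 probe sets, of which 1 exceeded the floor on 4 arrays and the other 2 on none. MYRIP, the linker to myosins that resembles MLPH, had 2 probe sets with log2 levels of 2.06 to 3.05 on all arrays. In a limma fit of 19774 genes without a floor, which called 3.7% of them at 1000 pM, the brightest SYTL2 probe set was lower (−0.50 ± 0.14, adjusted p = 0.0290) and MYRIP was not called (0.08 ± 0.10, adjusted p = 0.787). The SYTL2 group means were 3.83 ± 0.31 (SD, n = 6) in vehicle and 3.33 ± 0.19 at 1000 pM, both under the floor, so no fold is given. Probe sets under the floor on every array were also found for RAB27B (2 of 3), SYTL4 (2 of 3), MYO5A (2 of 4) and MYO5B (1 of 3).

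Of the class V myosins, MYO5B was lower and MYO5A and MYO5C did not pass. MYO5B, which moves RAB11 recycling endosomes in epithelia, had levels of 7.90 to 8.21 (median 7.99) in vehicle. They were 7.84 to 7.98 (median 7.90) at 100 pM and 7.75 to 7.91 (median 7.78) at 1000 pM. All 6 arrays at 1000 pM were under the vehicle mean, and the groups overlapped slightly. MYO5B fell by 0.20 ± 0.06 log2 units at 1000 pM (95% interval −0.31 to −0.09; limma, adjusted p = 0.0165), and its F test gave an adjusted p of 0.00328.

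The fall of MYO5B was small and was seen by 1 of its 2 entering probe sets. In the fit of all 19802 probe sets, which called 5.18% of them, that probe set had an adjusted p of 0.0211 and the other gave −0.14 ± 0.11 (limma, adjusted p = 0.556). The call was lost without vehicle replicate 1, the highest vehicle array (−0.16, adjusted p = 0.0765), and kept without the 4 arrays (−0.23 ± 0.06, adjusted p = 0.00585). The 0.1 and 0.3 pM arrays had a MYO5B mean of 8.07, against 8.01 in vehicle. The MYO5B SD was 0.106 in vehicle, 0.119 at 0.1 pM and 0.129 at 0.3 pM. The reason for choosing these arrays as reference, a wider spread in vehicle, therefore did not apply to MYO5B either. With the 0.1 and 0.3 pM arrays as reference MYO5B fell by 0.26 ± 0.05 at 1000 pM (limma, adjusted p = 7.50e-05). At 100 pM it fell by 0.17 (adjusted p = 0.0171). Its curve had an EC50 of 34.7 pM with a 95% interval of 4.27 to 331.1 pM. It moved to 17.4 pM without 10 pM replicate 5 and to 83.2 pM without all arrays numbered 1, so it is poorly fixed.

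MYO5A, the motor that binds melanophilin in pigment cells, had levels of 6.26 to 7.37 (median 7.24) in vehicle and 6.85 to 7.16 (median 7.05) at 1000 pM. The difference of the means was −0.01 ± 0.11 (95% interval −0.23 to 0.20; limma, adjusted p = 0.96), and −0.14 without the 4 arrays (adjusted p = 0.293). Its other entering probe set gave −0.08. MYO5C, the class V motor of glandular epithelia and their secretory granules, had levels of 8.64 to 9.69 (median 9.61) in vehicle and 9.36 to 9.60 (median 9.48) at 1000 pM. The difference was 0.03 ± 0.10 (95% interval −0.17 to 0.22; adjusted p = 0.914), and −0.11 ± 0.04 without the 4 arrays (adjusted p = 0.108). The lowest vehicle array of MYO5A and of MYO5C was replicate 5, 1 of the 4.

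**Figure D2:**
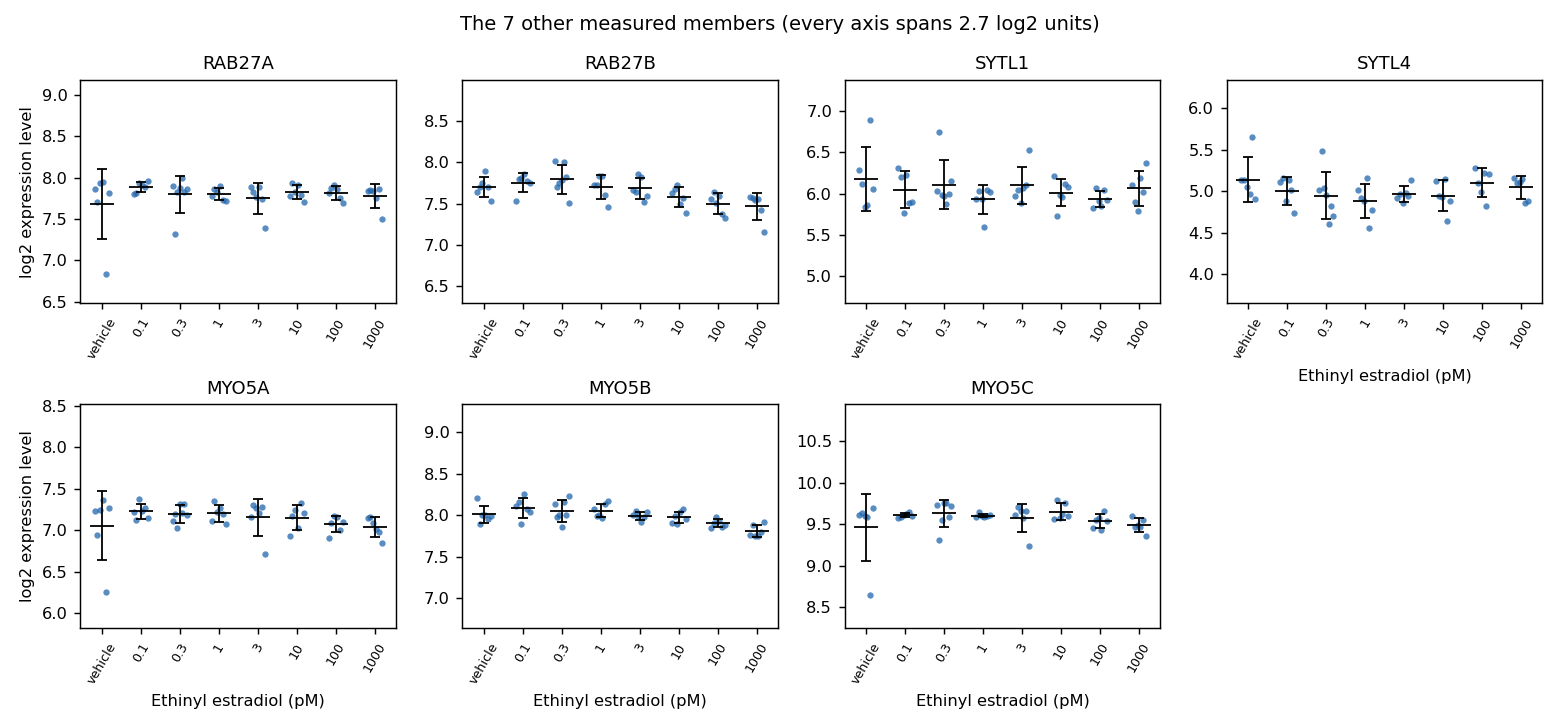
Log2 level of the 7 other tested members on each array (points) with the group mean and SD (line and bars) for vehicle and 7 EE concentrations in pM, each panel on its own level range of equal height. RAB27B, MYO5A and MYO5B have their lowest means at 1000 pM (7.47, 7.04 and 7.81). The lowest vehicle points of RAB27A, MYO5A and MYO5C are the array that stood apart.

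At 1000 pM, MLPH rose and MYO5B fell among the 8 tested members; the remaining 6 did not pass. That is 2 of 8, where 7.21% of all genes were called. The median change of the 8 was −0.05, against −0.01 over all genes tested, and that of the 7 without MLPH was −0.10. At 3, 10 and 100 pM MLPH was the only member called of 8, against 0.153%, 0.858% and 10.1% of all genes. Of the 7 without MLPH, 0 rose and 1 fell at 1000 pM. The members were chosen with earlier results of these data known, so these shares are a description and not a test. Across the 8 group means, which all members share, Pearson's r with MLPH was −0.96 for RAB27B and −0.95 for MYO5B, −0.69 for MYO5A, −0.37 for SYTL1, −0.36 for MYO5C, 0.04 for RAB27A and 0.33 for SYTL4. Over the 49 single arrays it was weaker: −0.67 for RAB27B, −0.68 for MYO5B, −0.31 for MYO5A and −0.20 to 0.16 for the others. The share of all genes with such correlations was not kept, so these values are a description and not a relation particular to the members.

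**Figure D3:**
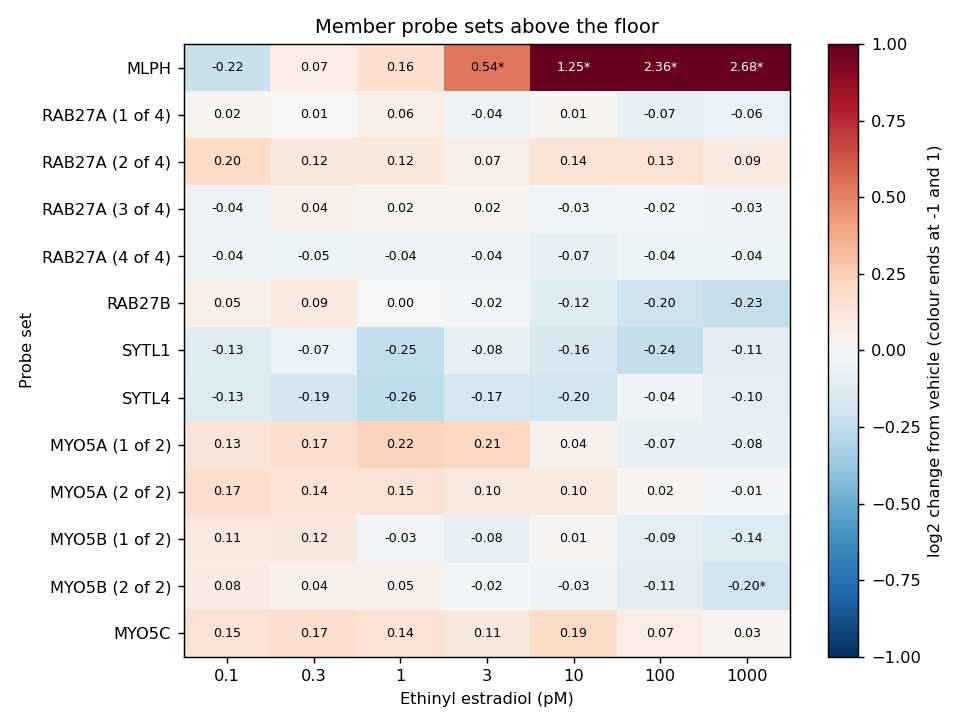
Difference of each group mean from the vehicle mean in log2 units (printed, and as colour, which ends at −1 and 1) for the 13 probe sets that entered the test (rows) at 7 EE concentrations in pM (columns); a star marks a call. The MLPH row goes from −0.22 at 0.1 pM to 2.68 at 1000 pM, and MYO5B has the other star (−0.20 at 1000 pM).

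Genes that act around these members were taken as 7 lists, and 4 of their 71 tested genes passed at 1000 pM. That share, 5.63%, is no higher than the 7.21% called over all genes, so the calls are given as single genes and not as a result about the lists. Of 9 tested RAB27 effectors and regulators, 1 rose and 0 fell (median change 0.02). It was RABGGTB, a subunit of the enzyme that prenylates RAB proteins (9.45 in vehicle and 9.69 at 1000 pM; 0.24 ± 0.07; limma, adjusted p = 0.0122). A further list of 6 held the RAB11 family interacting proteins and NHERF1, and of these 2 rose and 0 fell (median −0.03). NHERF1, which is a PDZ scaffold beneath the apical membrane and not a RAB11 adaptor, rose 1.76-fold (6.74 to 7.55; 0.81 ± 0.19, adjusted p = 0.00309). RAB11FIP2, which links RAB11 to MYO5B, rose by 0.38 ± 0.11 (6.99 to 7.36; adjusted p = 0.0168). Without vehicle replicate 5 RAB11FIP2 gave 0.20 and did not pass (adjusted p = 0.0724), and without all 4 arrays that stood apart it gave 0.26 and passed (adjusted p = 0.00247).

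Of 10 docking and fusion genes, 0 rose and 1 fell (median 0.02). It was CADPS2, a priming factor of dense-core vesicles (5.43 in vehicle and 4.97 at 1000 pM; −0.45 ± 0.10; limma, adjusted p = 0.00207). No gene passed among 13 RAB GTPases of secretion (median 0.04), 9 other myosins (median −0.11), 8 exocyst subunits (median −0.01) or 16 genes of lysosome-related organelle biogenesis (median 0.00), in the same limma fit.

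Several direct partners did not pass at 1000 pM. EXPH5 (exophilin-5), a further RAB27 effector, differed by 0.05 ± 0.07 (limma, adjusted p = 0.765). RAB11A, the GTPase carried by MYO5B, differed by 0.01 ± 0.06 (adjusted p = 0.953), and RAB3D, a secretory granule GTPase, by −0.16 ± 0.10 (adjusted p = 0.399). MADD, the exchange factor that activates RAB3 and RAB27, differed by −0.05 ± 0.11 (adjusted p = 0.839). TBC1D10A, a GTPase-activating protein of RAB27A, differed by −0.26 ± 0.15 (adjusted p = 0.325) and was lower at 100 pM (−0.44, adjusted p = 0.0435). UNC13D, SYTL3 and SYTL5 were not tested.

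**Figure D4:**
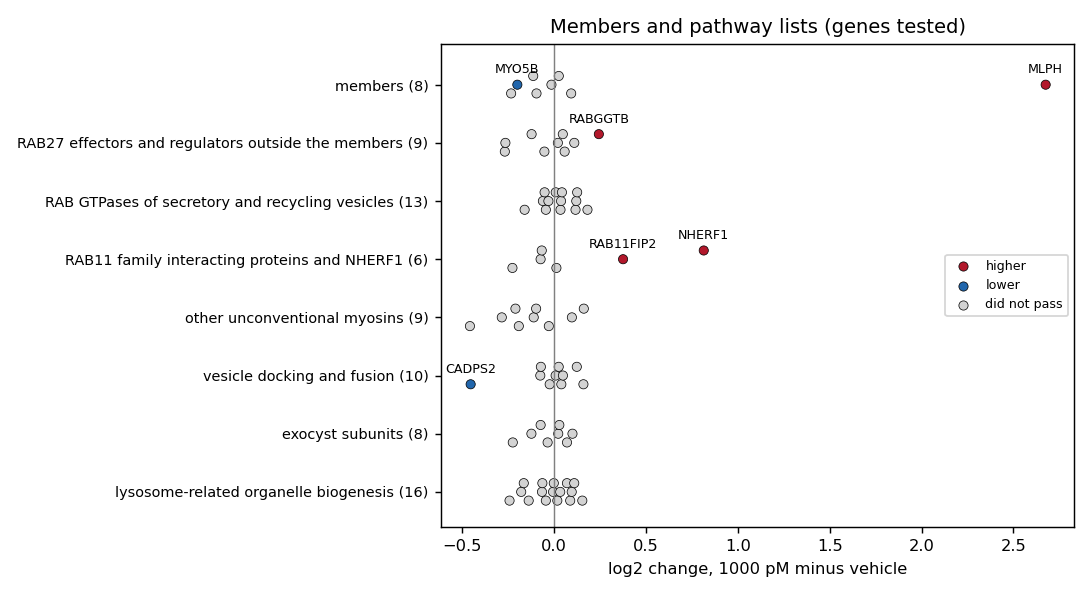
Log2 change at 1000 pM against vehicle for each tested gene (points; red higher, blue lower, grey did not pass) of the members and of 7 lists of related trafficking genes, with the number tested in brackets. MLPH stands at 2.68, and among the lists NHERF1 (0.81), RAB11FIP2 (0.38), RABGGTB (0.24) and CADPS2 (−0.45) passed.

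The genes whose 8 group means followed those of MLPH most closely were taken from 82 genes with group means spanning at least 1 log2 unit. CAPS had a Pearson's r of 0.998, PEG10 0.9976, HES2 0.9974, DHRS3 0.9968 and ANO1 0.9968. These correlations describe 8 points that come from the same arrays. At 1000 pM the log2 change was 1.66 for CAPS, 1.40 for PEG10, 1.85 for HES2, 3.84 for DHRS3 and 2.94 for ANO1. DHRS3 lay under the floor on the vehicle arrays, so its fitted change is not a measured fold. Over the 49 single arrays the closest were HES2 (0.9798), ALPG (0.9749), CAPS (0.9735), DHRS3 (0.9735) and SLC6A6 (0.9701).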

How the data were processed

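RNA from Ishikawa cells was hybridized to Affymetrix arrays, 1 per sample. The authors made the deposited values with GCRMA and Partek (versions not given), per the submitters' processing notes. No source used here states their scale. The deposited values were taken as log2 because they run from 1.22 to 13.5 and the authors used GCRMA, whose output is log2, and every fold rests on that inference. GCRMA compresses low signals. Gene names came from the platform annotation: of 54715 probe sets, 40920 had 1 symbol, 864 several and 12931 none, and probe sets without exactly 1 were not tested.

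The 8 group means were modelled in R 4.3.3 by limma 3.58.1, with statmod 1.5.0 for blocks. The variance prior followed intensity, and p-values were adjusted by Benjamini-Hochberg over 11075 genes in each contrast, with a threshold of 0.05. Tables were read with data.table version 1.17.8. "Rose", "fell" and "called" mean past that threshold. Curves searched EC50 values between log10 molar −14 and −8. The script was tested on simulated data. Figures used Python 3.11.15, matplotlib 3.10.9 and pandas 2.3.3.

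The members and lists were chosen with earlier results of these data known. Named were all members, list genes that passed at 1000 pM (up to 8), fixed partners, and the 5 genes most like MLPH. Replicate numbers deviated together (every pair's correlation over 0.1) in 3 neighbouring steps, where the lowest correlation was 0.206 (from 1 pM), 0.22 (from 3 pM) and 0.271 (from 10 pM), and in no contrast with vehicle. A replicate block in the first of these steps called 4 genes in place of 1, MLPH not among them (limma, adjusted p = 0.629). The alternatives were other floors, normalization, array weights, probe set choice, block, reference and left-out arrays.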

Additional observations from a re-analysis of the deposited data

Results flagged for a closer look

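In 14 of the 64 combinations of a tested member and a group (21.9%), the highest or lowest array stood apart by Dixon's test, where chance flags about 1 in 20. In 11 of these the array was among the 4 with a high actin 3′ to 5′ difference. RAB27A was low on vehicle replicate 5 (6.83, others 7.70 to 7.95), 0.3 pM replicate 2 (7.31, others 7.82 to 7.99), 3 pM replicate 6 (7.39, others 7.75 to 7.89) and 1000 pM replicate 6 (7.50, others 7.76 to 7.87). MYO5C was low on vehicle replicate 5 (8.64, others 9.59 to 9.69) and 3 pM replicate 6 (9.24, others 9.58 to 9.71). MYO5A was low on 3 pM replicate 6 (6.71, others from 7.16). RAB27B was low on 1000 pM replicate 6 (7.15, others 7.42 to 7.58). SYTL1 was high on 0.3 pM replicate 2 (6.74, others 5.88 to 6.15) and 3 pM replicate 6 (6.52, others 5.88 to 6.10), and SYTL4 on vehicle replicate 5 (5.65, others 4.91 to 5.14).

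The other 3 were on arrays whose control probes did not stand apart. RAB27B was low on 0.1 pM replicate 1 (7.53, others 7.75 to 7.86), SYTL1 on 1 pM replicate 4 (5.59, others 5.93 to 6.05), and MYO5B was high on vehicle replicate 1 (8.21, others 7.90 to 8.00).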

How the results depend on the processing

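MLPH at 10, 100 and 1000 pM kept its direction and its call under every alternative run and every left-out array, with 2.57 to 2.76 at 1000 pM without single arrays or replicate numbers and an EC50 of 10.2 to 11.2 pM. At 3 pM it was 0.54 and not called in the fit of those groups alone, which left 0 members called, and 0.40 to 0.65 with arrays left out, with 0 to 1 members called. At 0.3 pM, where it was not called, leaving out arrays gave −0.030 to 0.16. At 100 pM, in place of 1 member, 2 were called with array weights, 2 with a replicate block over all groups, 3 with the 0.1 and 0.3 pM reference and 1 to 2 with arrays left out. At 1000 pM, in place of 2, 1 was called from the mean of a gene's probe sets, 1 in the fit of those groups alone and 1 to 3 with arrays left out. There 3 were called with the 0.1 and 0.3 pM reference, with quantile normalization or with the block over all groups (each adding RAB27B), and with no floor (adding SYTL2). No share of all genes was kept for weights, quantile normalization, the mean of probe sets, single left-out arrays or the block over all groups. Nor was it kept for the fits of those groups alone, so these member counts lack that comparison. The pairing of replicate numbers does not hold against vehicle. There the replicate block over all groups called RAB27B lower (limma, −0.23, adjusted p = 0.0163), as did quantile normalization (−0.25, adjusted p = 0.0406) and leaving out vehicle replicate 6 (−0.27, adjusted p = 0.0352). MYO5B was not called from the mean of its probe sets (limma, −0.17, adjusted p = 0.110), in the fit of those groups alone (−0.20, adjusted p = 0.188) or without number 1, 3 or 4. RABGGTB was not called without number 4 (limma, adjusted p = 0.0594), NHERF1 in the fit of those groups alone (adjusted p = 0.106), and RAB11FIP2 with the low reference (0.18, adjusted p = 0.290), with the mean of probe sets (0.29, adjusted p = 0.0509) or in the fit of those groups alone (adjusted p = 0.446). The fit of those groups alone called 2 list genes.

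Among members not called at 1000 pM, these changed sign. RAB27A gave −0.061 with the low reference, −0.043 with weights, −0.0098 as the mean of probe sets and −0.021 without the 4 arrays. SYTL1 gave 0.033 with weights. SYTL4 gave 0.070, 0.061 and 0.039 with the low reference, with weights and without the 4 arrays, and MYO5C −0.13, −0.11 and −0.11, and −0.0080 with quantile normalization. With arrays left out, RAB27A ranged from −0.095 to 0.18, RAB27B from −0.27 to −0.17, SYTL1 from −0.20 to 0.039, SYTL4 from −0.15 to 0.045, MYO5A from −0.17 to 0.068, MYO5B from −0.24 to −0.15 and MYO5C from −0.15 to 0.10. The causes were not tested. Levels near the floor of 4 limit MLPH in vehicle and at low concentrations, SYTL2 and MYRIP.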

Other observations

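At 100 pM 8 of the 71 related list genes were called (11.3%), close to the 10.1% of all genes, so the lists do not stand out there. Those that did not pass at 1000 pM are named as single genes. CHML, a RAB escort protein, was higher (0.27), as was RAB38 (0.19), a GTPase of melanosome biogenesis. TBC1D10A (−0.44), MYO9B (−0.59), MYO10 (−0.21) and DTNBP1 (−0.24), a subunit of a complex for lysosome-related organelles, were lower. The change from 100 to 1000 pM passed for 0 genes in limma, with 305 (2.75%) at an unadjusted p under 0.05. No difference between these concentrations was therefore shown.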
